A study of Mus musculus with 12 samples.

Results

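MiR-191 and miR-425 are microRNAs (miRNAs) from neighboring hairpins of one genomic cluster, and their serum levels were examined before and after injection of human tumor cells into mice. The cluster was represented by 3 count rows: mmu-miR-191-5p (MIMAT0000221) and mmu-miR-425-5p (MIMAT0004750) among the 874 miRNAs counted in the mouse tables, and hsa-miR-191-5p (MIMAT0000440) among the 466 counted in the human tables. These rows were selected on measured values, the rise of miR-191-5p after injection, so all comparisons between the time points below are descriptions of the members and carry no test. The question addressed was whether the cluster neighbors rose together after the tumor.

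Serum came from 3 female athymic NCr nude mice (mice 1046, 1047 and 1069), aged 4 to 6 weeks at surgery. Athymic mice lack mature T cells and therefore accept human cells. Each mouse was bled before and 2 weeks after SH-SY5Y cells, an established human neuroblastoma line, were implanted under the kidney capsule, and no other treatment is labelled. RNA from 50 µl of each of the 6 sera was split into 2 aliquots, of which 1 was depleted of 5′ tRNA fragments (cleaved tRNAs that dominate such libraries) with biotinylated DNA probes and streptavidin beads and the other was left undepleted. This gave 4 groups of 3 small RNA libraries (before or after injection, depleted or undepleted). No mouse without tumor cells was sampled at the later time point. The tumor, the surgery, the earlier bleed and the elapsed time therefore cannot be told apart. The libraries are bulk serum, in which more releasing cells and more release per cell cannot be told apart either.

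A miRNA hairpin is cut into a duplex, one strand of which is usually kept on an Argonaute protein while the other, the passenger strand, is mostly lost. The retained strand finds target mRNAs through its seed, the bases near its 5′ end. MiR-191 and miR-425 are broadly expressed, including in blood cells, are generally regarded as products of a shared primary transcript, and have been studied in many cancers. MiR-191-5p is also widely used as a reference miRNA in serum and plasma PCR assays, where a reference is meant to stay level between groups.

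The mature sequences of both arms of each hairpin are shown because they define what the members can target and which reads can be told apart. They are given 5′ to 3′ from RefSeq (mouse build GRCm38.p6), and all 4 names matched an entry. The seed is in capitals.
mmu-miR-191-5p: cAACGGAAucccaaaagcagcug
mmu-miR-191-3p: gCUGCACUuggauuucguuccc
mmu-miR-425-5p: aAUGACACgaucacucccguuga
mmu-miR-425-3p: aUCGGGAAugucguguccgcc

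The 4 seeds differ from each other, so the neighbors do not form a seed family. Among the 1679 mature mouse miRNAs in the same RefSeq table, no other one shared the seed of miR-191-5p, miR-191-3p or miR-425-3p, while mmu-miR-489-3p shared that of miR-425-5p. The hairpins are shown next because the 2 arms of each are compared further on, and their mature arms are in capitals.
Mir191: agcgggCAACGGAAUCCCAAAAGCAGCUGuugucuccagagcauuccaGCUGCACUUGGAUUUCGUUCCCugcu
Mir425: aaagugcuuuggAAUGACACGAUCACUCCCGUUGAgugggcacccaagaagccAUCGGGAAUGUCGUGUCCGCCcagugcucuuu

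Both hairpins lie on the plus strand of mouse chromosome 9 (GRCm38). Mir191 spans chr9:108568319-108568392 and Mir425 spans chr9:108568777-108568861, with 384 bases between them. In the GENCODE M21 annotation both lie within exon 1 of the long noncoding transcript 4833445I07Rik-201 (chr9:108567533-108569174). A shorter transcript of the same gene, 4833445I07Rik-202 (chr9:108567893-108568774), spans Mir191 but ends before Mir425. The protein-coding gene Dalrd3 begins 1024 bases downstream of Mir425 on the same strand. A miRNA entry on the opposite strand, Gm24083 (chr9:108568295-108568414), covers the whole Mir191 hairpin.

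Depth differed strongly between the arms of the study. Mouse-annotated counts ranged from 938706 to 2271549 in the 6 depleted libraries and from 21235 to 97183 in the 6 undepleted ones, the smallest being the undepleted aliquot of mouse 1069 before injection. Each member had at least 20 reads in every library, whereas the 3p arms had 5 or fewer in undepleted ones.

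MiR-191-5p was among the most abundant serum miRNAs. In depleted libraries it was counted 66475, 95163 and 43451 times before injection (mice 1046, 1047 and 1069) and 200850, 249740 and 423846 times after it. This was 4.93%, 5.23% and 4.63% of the mouse counts before and 11.3%, 14.3% and 18.7% after. All shares after injection therefore lay above all shares before it. In undepleted libraries the counts were 5495, 5962 and 1051 before and 9520, 7851 and 9833 after, or 5.65%, 6.62% and 4.95% of mouse counts followed by 14.0%, 15.1% and 19.9%. The groups did not overlap here either, and the share rose in 3 of 3 mice in both arms. MiR-191-5p was chosen for this rise, and the number of other mouse miRNAs whose shares separate likewise was not counted. With total counts as size factors, the median log2 fold change over all tested mouse miRNAs was 0.12 in depleted and 0.013 in undepleted libraries. Its place among all mouse miRNAs moved from between 4 and 6 before injection to 1 or 2 after it.

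After scaling by DESeq2 size factors within each arm, the normalised count of miR-191-5p in depleted libraries was 87651 ± 17778 before and 215668 ± 59500 after injection (SD, n = 3 each). The fitted log2 fold change was 1.21 (SE 0.27), a 2.31-fold difference. In undepleted libraries the normalised counts were 3376 ± 929 and 8785 ± 1690 (SD, n = 3 each) and the log2 fold change was 1.29 (SE 0.25). Mouse 1069 showed the largest difference, with a log2 ratio of 2.01 in the depleted arm and 2.14 in the other. The corresponding values were 0.86 and 0.98 (depleted) and 1.13 and 0.93 (undepleted) in mice 1046 and 1047. Without mouse 1069 the log2 fold change was 0.90 in depleted and 0.97 in undepleted libraries, just under the 2-fold limit.

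MiR-425-5p, the other guide strand of the cluster, changed less after injection, and its direction depended on the scaling. Its counts in depleted libraries were 2321, 3093 and 1103 before and 2872, 3026 and 4439 after injection, or 0.172%, 0.170% and 0.118% of mouse counts followed by 0.161%, 0.174% and 0.195%. In undepleted libraries they were 168, 161 and 20 before and 97, 77 and 95 after. The groups overlapped in both arms as shares of mouse counts and as normalised counts. The same reads as a share of the human tables were 0.0894%, 0.0802% and 0.0638% before and 0.102%, 0.112% and 0.140% after in depleted libraries, and 0.0891%, 0.0934% and 0.0580% before and 0.0960%, 0.0969% and 0.135% after in undepleted ones. On that scale miR-425-5p was higher after injection in 3 of 3 mice without overlap in both arms. With total counts as size factors, however, the median log2 fold change over all tested human miRNAs was 0.38 in depleted and 0.31 in undepleted libraries. The table as a whole thus moved upward on that scale, and nothing is read from the rise of miR-425-5p there. With median-of-ratios size factors the fitted log2 fold changes of its human row were -0.02 (SE 0.28) and -0.04 (SE 0.31). Normalised counts in depleted libraries were 2756 ± 877 before and 2578 ± 316 after (SD, n = 3 each), with a log2 fold change of -0.09 (SE 0.28). In undepleted libraries they were 88.8 ± 37.4 and 86.6 ± 14.6 (SD, n = 3 each), with a log2 fold change of -0.07 (SE 0.32).

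The mean concealed a split between mice that was alike in both arms. With size factors, mice 1046 and 1047 had lower miR-425-5p after injection, with log2 ratios of -0.43 and -0.44 in depleted and -0.45 and -0.53 in undepleted libraries. Mouse 1069 had higher levels, with log2 ratios of 0.73 and 1.15. As a share of all mouse counts, the depleted value of mouse 1047 was 0.174% after against 0.170% before, so its direction there depended on the scaling. The first serum of mouse 1069 held the lowest normalised miR-425-5p of the 6 sera in both arms, and also the lowest miR-191-5p. Without mouse 1069 the log2 fold change of miR-425-5p was -0.41 in depleted and -0.45 in undepleted libraries.

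**Figure D1:**
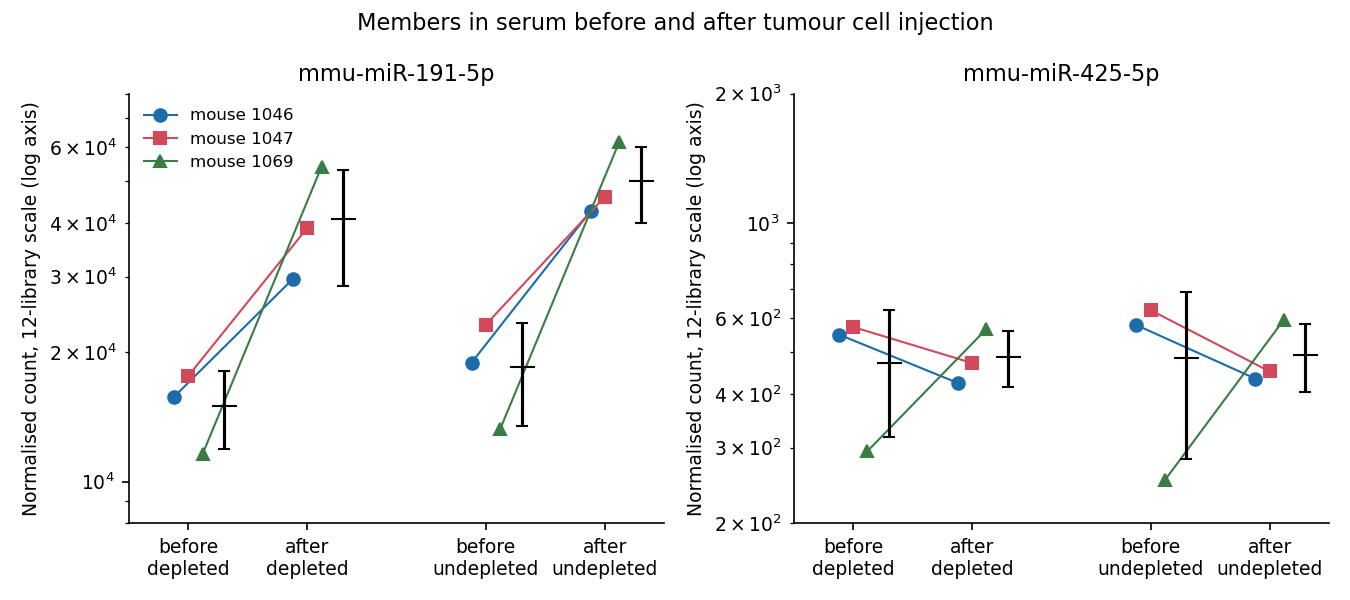
Normalised counts of miR-191-5p (left) and miR-425-5p (right) on one scale for all 12 libraries (log axis), with a point per library, a line joining the 2 sera of a mouse and black bars for mean ± SD (n = 3). MiR-191-5p lay between 11585 and 23185 before and between 29644 and 61615 after injection, whereas on this scale miR-425-5p ranged over overlapping levels at both time points, with mouse 1069 moving opposite to the other mice.

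Calls required a DESeq2 adjusted p (Benjamini-Hochberg) below 0.05 together with a difference of at least 2-fold. In depleted libraries 15 of 310 mouse miRNAs tested were called higher (4.84%) and 18 lower (5.81%), and in undepleted libraries 9 of 108 were called higher (8.33%) and 3 lower (2.78%). With total counts as size factors the split in depleted libraries was 32 higher and 5 lower, and with TMM factors that in undepleted libraries was 8 higher and 5 lower. edgeR called 20 higher and 13 lower in depleted and 11 higher and 10 lower in undepleted libraries. Without mouse 1069 DESeq2 called 5 higher and 14 lower in depleted and 1 higher and 6 lower in undepleted libraries. MiR-191-5p was among those called higher in both arms, and miR-425-5p was called in neither. As the contrast was used to choose the members, nothing is read from these counts. The median log2 fold change over all tested miRNAs was -0.09 in depleted and -0.06 in undepleted libraries, values close to that of miR-425-5p.

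**Figure D2:**
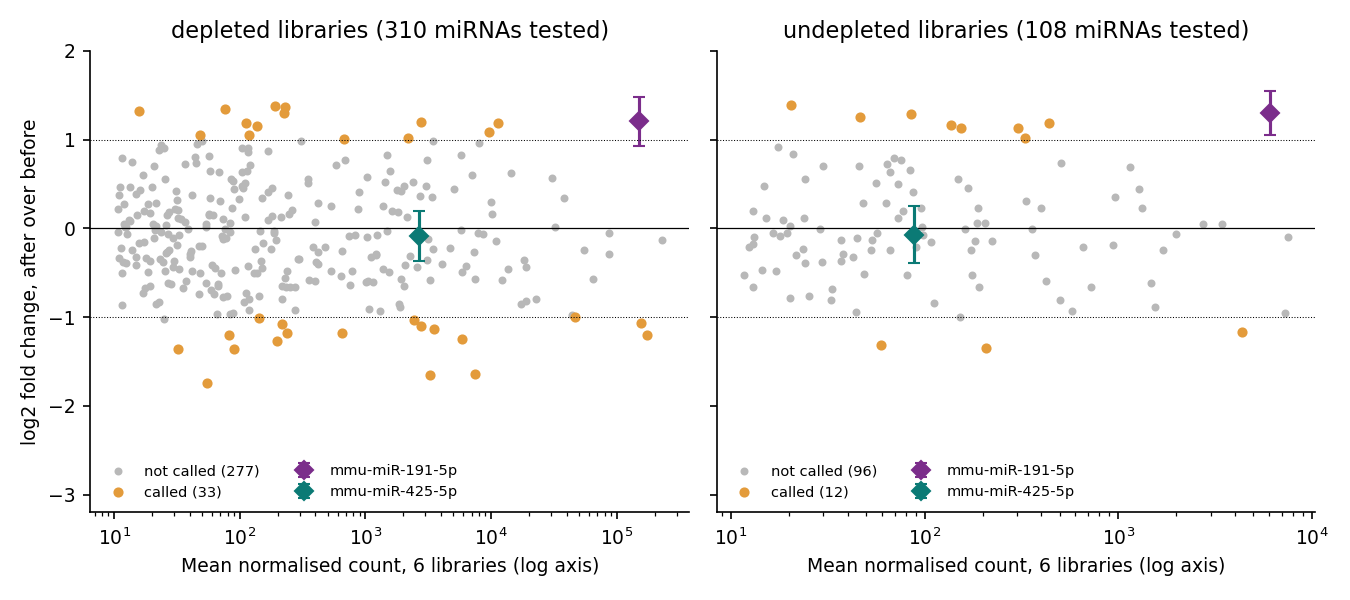
Log2 fold change after over before injection against mean normalised count (log axis) for the 310 and 108 mouse miRNAs tested, with called miRNAs in orange, dotted lines at 2-fold and bars of 1 SE on the members. MiR-191-5p sits at the high-abundance end above the upper line in both panels, and miR-425-5p sits near 0 with these size factors.

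The ratio of the neighbors within a library needs no normalisation, since both counts share the same depth. In depleted libraries there were 34.9, 32.5 and 25.4 miR-425-5p reads per 1000 miR-191-5p reads before injection (mice 1046, 1047 and 1069) and 14.3, 12.1 and 10.5 after it. In undepleted libraries the ratios were 30.6, 27.0 and 19.0 before and 10.2, 9.81 and 9.66 after. Every ratio after injection was below every ratio before it within each arm. MiR-191-5p was chosen for its rise, so a fall of this kind follows for any miRNA that stayed level. How many other miRNAs separate in the same way was not counted. The fall was 2.42- to 2.68-fold in the 3 mice in depleted libraries (mean log2 difference -1.33 ± 0.08, SD, n = 3) and 1.97- to 3.00-fold in undepleted libraries (-1.34 ± 0.32, SD, n = 3). Mouse 1069, which departed from the others in the level of each miRNA, had a 2.42-fold fall of the ratio in depleted libraries, the smallest of the 3 but close to the other two. Its undepleted ratio before injection rested on 20 miR-425-5p reads, with a 95% Wilson interval of 12.3 to 29.5 per 1000 that covers counting error only.

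**Figure D3:**
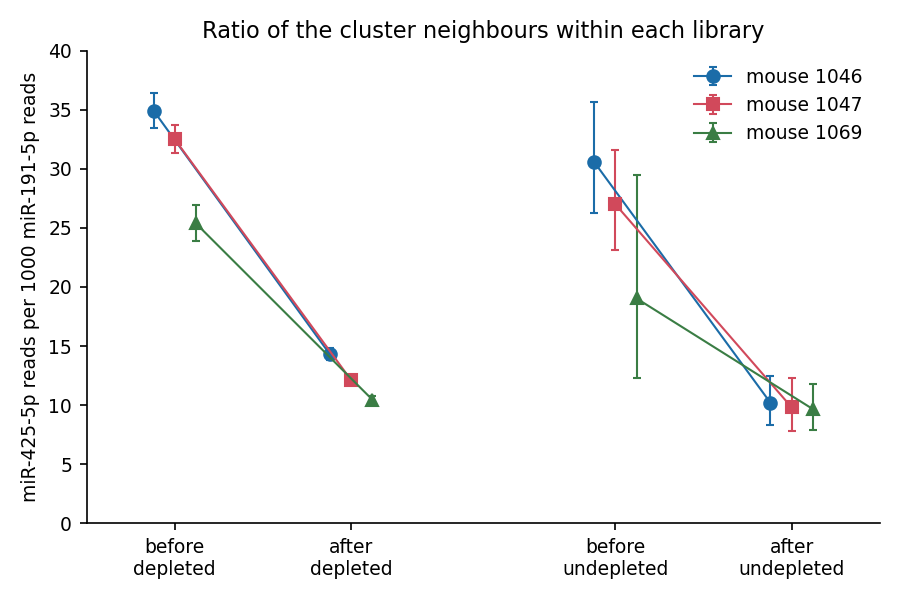
MiR-425-5p reads per 1000 miR-191-5p reads in each library, with 95% Wilson intervals of counting error and lines joining the 2 sera of a mouse. All 6 pairs fall, from between 19.0 and 34.9 before to between 9.66 and 14.3 after injection. As miR-191-5p was chosen for its rise, the fall largely restates that choice.

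The pattern of miR-191-5p over the 6 depleted libraries was compared with that of the other mouse miRNAs with a mean of at least 50 normalised counts. Likeness was measured as Pearson's r of log2(normalised count + 1) over 6 libraries from 3 mice, which share library depth and the size factors, among 212 miRNAs. The first 5 had r between 0.98 and 0.99 and log2 fold changes between 0.97 and 1.37, and the closest were MIMAT0000161 (r = 0.99) and MIMAT0000565 (r = 0.99), which the files do not pair with names. MiR-425-5p held place 80 with r = 0.26. With each library scaled to its total in place of size factors its r was 0.61, again at place 80. Since miR-191-5p was chosen for its rise over these libraries, the order largely restates which miRNAs rose with it.

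The passenger strands were counted rarely. MiR-191-3p had 15, 28 and 15 reads before and 37, 31 and 50 reads after injection in depleted libraries, which is 0.226, 0.294 and 0.345 reads per 1000 miR-191-5p reads before and 0.184, 0.124 and 0.118 after. Relative to its own 5p arm it was lower after injection in 3 of 3 mice, by 1.22- to 2.93-fold. Its normalised level was 24.9 ± 5.45 before and 29.4 ± 3.65 after (SD, n = 3 each), with a log2 fold change of 0.18 (SE 0.43), and it was not called. The estimate for this passenger strand was below that for its guide strand, but their 95% intervals overlapped (-0.66 to 1.03 against 0.67 to 1.74). The difference between the strands was not tested.

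MiR-425-3p went the other way relative to its partner. It had 8, 20 and 5 reads before and 34, 41 and 59 reads after injection in depleted libraries, or 3.45, 6.47 and 4.53 per 1000 miR-425-5p reads before and 11.8, 13.5 and 13.3 after. These ratios did not overlap and were 2.10- to 3.43-fold higher after injection in 3 of 3 mice. The log2 fold change of miR-425-3p was 0.94 (SE 0.46) and it was not called. In undepleted libraries miR-191-3p and miR-425-3p had between 0 and 5 reads each, so the pattern was not detectable at that depth.

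**Figure D4:**
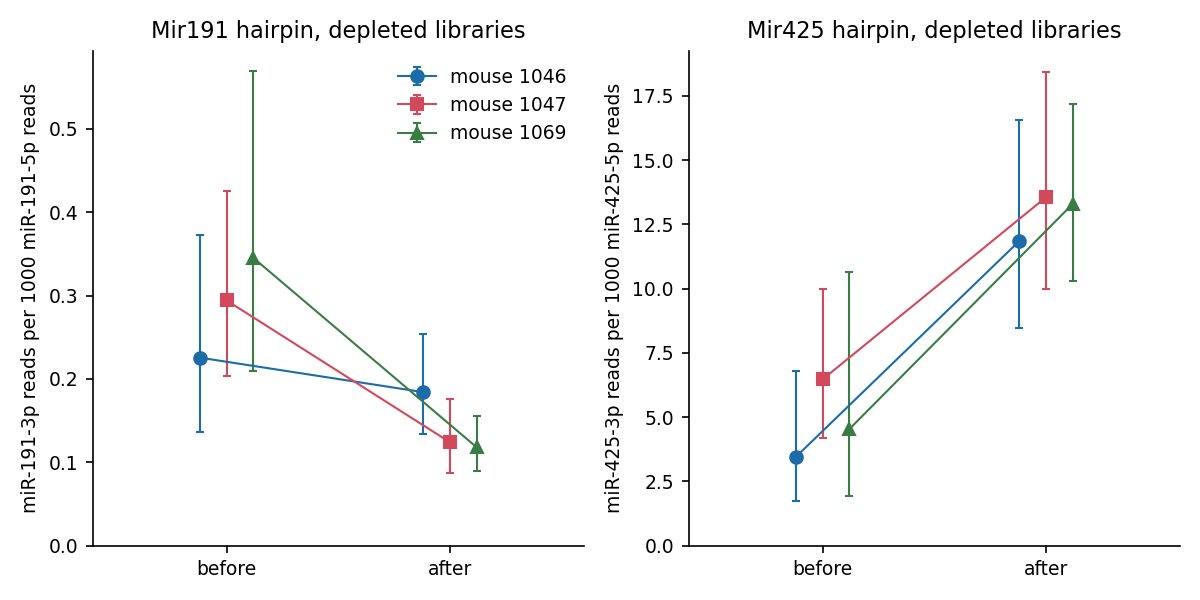
Passenger reads per 1000 guide reads of the same hairpin in the 6 depleted libraries, with 95% Wilson intervals of counting error and lines joining the 2 sera of a mouse. The share of miR-191-3p is lower after injection in each mouse, with overlapping intervals in mouse 1046, whereas that of miR-425-3p is higher in each mouse, with overlapping intervals in mice 1047 and 1069.

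The human tables ask whether the reads could be assigned to the tumor cells or to the host. The hsa-miR-191-5p row held 1119236 reads over the 12 libraries and the mouse row 1119237, with equal counts in 11 libraries and a difference of 1 read in the other. Human and mouse rows of miR-425-5p held 17472 reads each and those of miR-425-3p held 172 each, equal in all 12 libraries. Counts of these strands are thus the same reads listed under both species, and in sera after injection their origin cannot be told apart. Before injection the mice held no human cells, yet these reads were listed in the human tables then too. In the human tables miR-191-5p was 2.56%, 2.47% and 2.51% of counts before and 7.15%, 9.24% and 13.4% after injection in depleted libraries. The fitted log2 fold changes were 1.26 (SE 0.27) in depleted and 1.33 (SE 0.24) in undepleted libraries, and without mouse 1069 they were 0.94 and 1.03. The row was called higher in both arms, where 17 of 323 (5.26%) and 6 of 89 (6.74%) human miRNAs tested were called higher, and nothing is read from these counts for the same reason as above.

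The passenger strand of the Mir191 hairpin was the exception, since its human row (hsa-miR-191-3p, MIMAT0001618) did not repeat the mouse counts. It held 12 reads in all, against 186 in the mouse row. No read was listed in the 6 libraries before injection or in the 3 undepleted libraries after it. In depleted libraries after injection there were 0, 1 and 11 reads in mice 1046, 1047 and 1069, the last being a share of 3.46 ppm of human counts (95% Wilson interval 1.93 to 6.20). A count of 0 allows a share of up to 0.778 to 1.73 ppm in the depleted libraries before injection, and of up to 15.9 ppm or more in undepleted ones, taking 3 reads as the limit. The value of mouse 1069 lay above the limit of its own first depleted serum (1.73). By the Wilson interval, however, the count of 0 in that serum allows up to 2.22 ppm, which overlaps the interval of 1.93 to 6.20. The value also rests on 1 library, and the miRNA did not pass the filter of the test.

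The comparison of aliquots was independent of how the members were chosen. In the 2 aliquots of a serum, the log2 ratio of depleted to undepleted normalised counts of miR-191-5p was -0.26, -0.40 and -0.19 before injection and -0.52, -0.24 and -0.19 after it (mice 1046, 1047 and 1069). It was lower in the depleted aliquot in 6 of 6 sera (mean -0.30 ± 0.13, SD, n = 6). The DESeq2 fit with time point as covariate gave -0.29 (SE 0.19, 95% interval -0.67 to 0.08, DESeq2 adjusted p = 0.394), and miR-191-5p was not called. With the serum as a block, which pairs the aliquots, the estimate was -0.30 with a DESeq2 adjusted p of 1.57e-06, still below the 2-fold limit. The size depended on the scaling, falling to -0.04 with TMM factors (DESeq2 adjusted p = 0.931). The human row gave -0.26 (SE 0.18, DESeq2 adjusted p = 0.666) and -0.27 with the block (DESeq2 adjusted p = 6.71e-06).

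MiR-425-5p was lower in the depleted aliquot in 4 of 6 sera, with log2 ratios between -0.13 and 0.22. Its fitted difference was -0.05 (SE 0.22, 95% interval -0.48 to 0.38, DESeq2 adjusted p = 0.920). Among all mouse miRNAs 32 of 383 (8.36%) and among all human miRNAs 23 of 414 (5.56%) were called between aliquots, and no member was. The normalised count of miR-425-5p on the common scale of all 12 libraries was 472 ± 155 (before, depleted), 485 ± 204 (before, undepleted), 487 ± 72.4 (after, depleted) and 493 ± 88.7 (after, undepleted; SD, n = 3 each), and no neighbors in this order differed beyond their spread. For miR-191-5p the order was 14979 ± 3084 (before, depleted), 18445 ± 4991 (before, undepleted), 40880 ± 12324 (after, depleted) and 50062 ± 10149 (after, undepleted; SD, n = 3 each), with overlap between aliquots and none between time points.

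The ratio of miR-425-5p to miR-191-5p was higher in the depleted aliquot in 6 of 6 sera. The log2 differences were 0.19, 0.27 and 0.42 before injection and 0.49, 0.31 and 0.12 after it (mice 1046, 1047 and 1069). Their mean was 0.30 ± 0.14 (SD, n = 6 sera), a 1.23-fold difference (exact two-sided sign-flip permutation test, p = 0.03125, the smallest that 64 sign patterns can give). This ratio does not depend on scaling, but the 6 sera came from 3 mice and are not fully independent. The difference between aliquots was small beside the fall of the same ratio after injection.

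**Figure D5:**
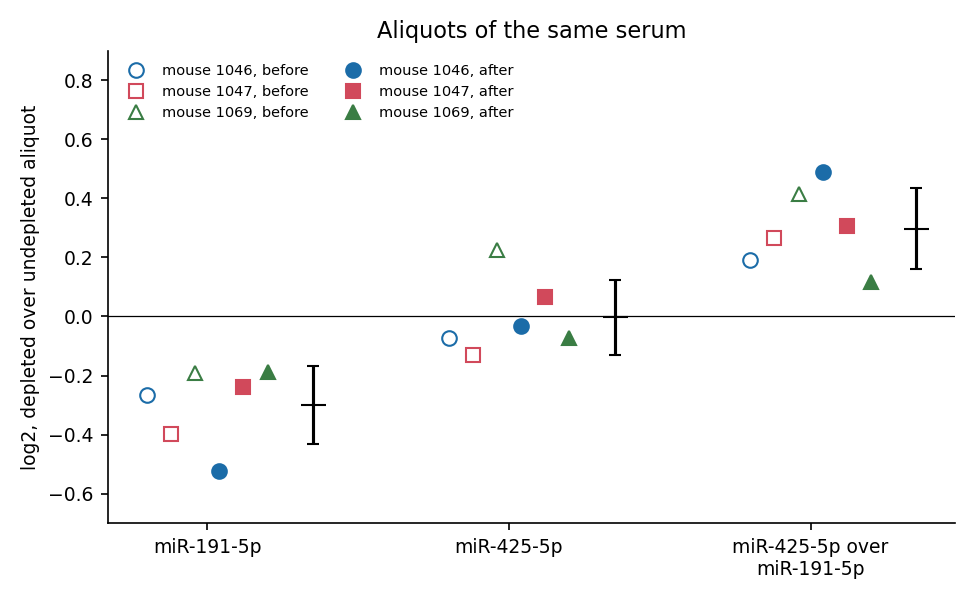
Log2 ratio of depleted to undepleted aliquot for miR-191-5p and miR-425-5p (12-library normalised counts) and for the ratio of miR-425-5p to miR-191-5p (raw counts), with a point per serum and black bars for mean ± SD (n = 6). The points of miR-191-5p all lie below 0, those of miR-425-5p lie on both sides of it, and those of the ratio all lie above it.

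Whether the change after injection differed between depleted and undepleted aliquots was tested by an interaction of time point and depletion. The difference in log2 fold change (depleted minus undepleted) was 0.01 for miR-191-5p (SE 0.41, 95% interval -0.79 to 0.81, DESeq2 adjusted p = 0.998) and 0.07 for miR-425-5p (SE 0.48, 95% interval -0.87 to 1.00, DESeq2 adjusted p = 0.998). DESeq2 called 0 of 874 miRNAs (0%), with 3 at an unadjusted p below 0.05, and edgeR called 0 of 265, with 6 at an unadjusted p below 0.05. The intervals still allow differences of nearly a log2 unit between the arms in either direction.

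MiR-191-5p is used as a reference, so it was set beside 8 other mouse miRNAs that serve as references in serum and plasma assays, of which 7 were counted. In depleted libraries none of the 7 was called higher (4.84% of all miRNAs tested) and 1 was called lower (5.81% of all). The lower one was miR-16-5p (log2 fold change -1.07, SE 0.25), an abundant miRNA of red blood cells that is also in the erythroid list described further on. The 7 log2 fold changes ranged from -1.07 to 0.83 with a median of -0.30, against -0.09 over all tested miRNAs. The other 2 most abundant references were miR-93-5p (-0.82, SE 0.27) and let-7i-5p (-0.45, SE 0.24). In undepleted libraries 1 was called higher (8.33% of all miRNAs tested), miR-423-3p (1.14, SE 0.27), named here after its value was seen. None was called lower (2.78% of all), and the range was -0.95 to 1.14. With 7 members, nothing is read from these counts of calls. The log2 fold change of miR-191-5p lay above those of all 7 in both arms, though in undepleted libraries (1.29, SE 0.25) that of miR-423-3p was close. MiR-191-5p was chosen for its rise on this contrast, so this order was nearly fixed in advance and nothing is read from it.

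Markers of cells that could release miRNAs into serum also moved with the time point. Of 6 listed erythroid miRNAs, 4 were analysed (miR-451a, miR-144-3p, miR-16-5p and miR-15a-5p), and miR-144-5p, listed without an identifier, was not looked up. All 4 of those analysed were called lower in depleted libraries, where 5.81% of all miRNAs were, with log2 fold changes between -1.65 and -1.07. In undepleted libraries 2 were called lower (2.78% of all miRNAs), and miR-16-5p (-0.95) and miR-15a-5p (-0.999) lay just short of the 2-fold limit. Their summed normalised count in depleted libraries ranged from 342957 to 575569 before and from 168718 to 234240 after injection, led by miR-451a and miR-16-5p. The muscle miRNA miR-133a-3p was called lower in both arms (-1.64 and -1.35), with a muscle sum in depleted libraries of 6811 to 13930 before and 2746 to 3676 after. MiR-206-3p averaged only 5.79 ± 3.72 normalised counts before (SD, n = 3) and 0 after in depleted libraries. It did not pass the filter of the test, so nothing is read from its change. The direction of both lists was opposite to that of miR-191-5p, and their part in its rise was not tested.

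None of the other marker lists held a called miRNA in either arm. The summed level of 5 leukocyte and platelet miRNAs, led by miR-142a-5p and miR-150-5p, ranged from 58556 to 72711 before and from 54588 to 62352 after injection in depleted libraries. The endothelial miR-126a-5p ranged from 8471 to 10306 before and from 10396 to 10885 after. The liver list, led by miR-192-5p and miR-194-5p, ranged from 7490 to 15755 before and from 16504 to 22250 after in depleted libraries. In undepleted ones it ranged from 228 to 501 before and from 494 to 756 after. There miR-194-5p averaged 2.53 normalised counts against 508 for miR-192-5p, so that sum was nearly all miR-192-5p. The fitted log2 fold change of miR-194-5p between aliquots, depleted over undepleted, was 3.97 (SE 0.40). MiR-122-5p, the defining liver miRNA, averaged 3.34 normalised counts before and 4.31 after in depleted libraries. The liver sum thus overlapped between time points in undepleted but not in depleted libraries, and its part in the rise of miR-191-5p was not tested. Listed markers without counts in these tables, and miR-144-5p, were not analysed here.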

How the data were processed

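Small RNA of 12 serum libraries was analysed from the deposited read counts per mature miRNA, 1 mouse and 1 human table per library. The authors trimmed adaptors with cutadapt 1.8.1, filtered on quality with the FASTX-Toolkit and mapped reads without mismatches with Bowtie 1.1.2 (per the labels) to GRCm38/mm10 and GRCh37/hg19, and reads were annotated with miRBase. The deposited counts are not normalised, and handling of reads with several loci is not given in the sources used here. An unlisted miRNA was taken as 0.

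Counts were fitted with DESeq2 1.42.0 (R 4.3.3), as in the study, separately by table and arm with time point as the only term, median-of-ratios size factors, a zero-centred prior on fold changes and independent filtering. Depletion was fitted on all 12 libraries with time point as covariate, and the interaction without the prior. Calls needed an adjusted p below 0.05 and at least 2-fold (log2 of 1), except the interaction (adjusted p alone). edgeR 4.0.16 was an alternative test. Ratios of 2 counts were tested in Python 3.11.15 with SciPy 1.17.1. Wilson intervals (95%) and the limit of 3 counts cover counting error only, and reads carry no molecular identifiers (15 PCR cycles). Fits were tested on simulated counts.

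Replicates are separate mice. The same mice and sera recur across groups per the labels, so a block was fitted as an alternative. Deviations from the group means of the 2 sera of a mouse correlated at -0.15 on average in depleted (213 miRNAs) and -0.21 in undepleted libraries (68 miRNAs), and those of the 2 aliquots of a serum at 0.55 (115 miRNAs).

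The miRNAs named were the members, the other arms of both hairpins, the 3 most abundant references, up to 2 leading markers per list and the 5 nearest patterns, of which 2 identifiers are printed. Further erythroid, liver and muscle markers and miR-423-3p were named after their values were seen. The members and lists were chosen with earlier results of these data known. The tables give accessions only, and names of rows other than the members and miR-16-5p were assigned from miRBase accession numbers known as background. Human miRNA sequences were not used here.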

Additional observations from a re-analysis of the deposited data

How the results depend on the processing

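MiR-191-5p was higher after injection under each of the 9 alternatives in both arms and both tables, with log2 fold changes between 0.90 and 1.50 (mouse, depleted), 0.97 and 1.51 (mouse, undepleted), 0.94 and 1.89 (human, depleted) and 1.03 and 1.76 (human, undepleted). It met the 2-fold limit in 8, 8, 8 and 9 of 9 alternatives, the exceptions being those without mouse 1069. MiR-425-5p was called in none of 9 in either arm, with values between -0.41 and 0.20 (depleted) and between -0.45 and 0.21 (undepleted), and its sign turned with total counts (0.20 and 0.06) and without mouse 1046 (0.07 and 0.14) or 1047 (0.12 and 0.21).

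The numbers of miRNAs called moved more. Leaving out one mouse at a time gave 11 to 32 calls (main 33) in the mouse depleted comparison (11 without mouse 1047, 19 without mouse 1069), 1 to 11 (main 12) in the undepleted one (1 without mouse 1047, 7 without mouse 1069), 6 to 17 (main 23, 6 without mouse 1047, 14 without mouse 1046) and 1 to 8 (main 9, 1 without mouse 1047) in the human ones, and 19 to 33 (mouse, main 32, 19 without mouse 1046) and 17 to 25 (human, main 23) between aliquots. Without the 2-fold limit the counts were 52, 21, 37, 21, 55 and 45 in the same order. edgeR called 21 in mouse undepleted and 17 in human undepleted libraries, and total counts as size factors gave 46 (44 higher, 2 lower) in human depleted and 16 (15 higher, 1 lower) in human undepleted libraries, where TMM gave 6 higher and 7 lower (main 6 and 3). Between mouse aliquots TMM gave 32 higher and 10 lower (main 19 and 13). Total counts moved the median log2 fold change of all tested miRNAs by 0.21 (mouse, depleted), 0.38 and 0.36 (human, depleted and undepleted), and TMM moved that between mouse aliquots by 0.26. The cause of these shifts was not tested.

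Between aliquots, miR-425-5p turned to 0.20 with TMM factors and to 0.055 with total counts. The interaction of miR-191-5p turned to -0.059 with edgeR, -0.030 with the replicate block and -0.051 without mouse 1047, within a range of -0.051 to 0.061 over the fits leaving out one mouse. The adjusted p of miR-191-5p between aliquots ranged from 1.57e-06 with the serum block to 0.931 with TMM (DESeq2), and was 0.0194 without mouse 1069. The ratio between aliquots was 0.28 to 0.31 without each mouse, where the 4 remaining sera cannot give an exact p below 0.125. The r of miR-425-5p with miR-191-5p was 0.61 with libraries scaled to their totals. With mouse or serum as a replicate block the counts called were 26 and 11 (mouse), 18 and 8 (human), 27 and 23 (aliquots) and 0 (interaction). The block changed no call of a member. The undepleted libraries limit miR-425-5p to 20 to 168 reads and the 3p arms to 5 or fewer.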
